A study of Danio rerio with 20 samples.

Results

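The genes described here encode the contractile machinery of muscle and its relatives in other cells: myosin heavy and light chains, troponins, parvalbumins, creatine kinases, calcium pumps of the sarcoplasmic reticulum and further proteins of the sarcomere, measured in zebrafish liver tumors and normal zebrafish livers. They were taken by name, as every probe whose single platform gene symbol begins with myl, myh, myo, tnnc, tnni, tnnt, pvalb, ckm, ryr, atp2a, mybp, ldb3, casq, desm or smyd1, leaving out mylip and the myogenic transcription factors. This gave 43 probes of 40 genes out of 16512 probes on the array. No probe carried a single symbol beginning with ryr, ldb3 or casq, and 7 probes assigned to several genes were not counted as members. For the comparison, probes of a gene were averaged, which left 15780 features. The 40 genes were separated into 26 genes of striated muscle, 4 genes of smooth and non-muscle myosin II, 7 unconventional myosins and 3 others: the mitochondrial creatine kinase ckmt1, the calcium pump atp2a2b and the kinase mylk5.

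In striated muscle, myosin II filaments pull on actin filaments inside sarcomeres, and troponin, when it binds calcium, lets them do so. Fast skeletal, slow and cardiac fibres each use their own set of myosin and troponin genes. Non-muscle cells, hepatocytes among them, use other myosin II genes for cell shape, adhesion and division, and these are switched on by phosphorylation of their regulatory light chains. Unconventional myosins carry cargo or link membranes to actin. Liver itself holds no striated muscle, while smooth muscle lines its vessels and larger ducts.

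The tumor group comprised 10 arrays, titled T and a number, of liver tumors that the labels call carcinogen-induced, and the normal group 10 arrays of normal liver, titled C and a number. The labels used here name no strain, age, sex or carcinogen. They also do not tie arrays to individual fish, and the p-values therefore cover only variation among these samples, part of which may be technical. On every array the liver sample was labelled with Cy5 and normal liver RNA, the common reference, with Cy3. Values are log2 ratios, likely liver sample over reference. Were it reference over liver sample, higher and lower would swap throughout. Each difference is the tumor mean minus the normal mean on the log2 scale, ± SE (10 arrays in each group), and adjusted p-values are those of limma over all 15780 features, with a threshold of 0.05. Ratios do not compare the level of different genes. In tissue RNA, fewer cells of a type and less RNA per cell cannot be told apart.

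The table holds no brightness, but values that fall exactly on the ratio of small whole numbers were taken to mark dim spots. This reading could not be checked. Their share was 0.594% to 7.16% on tumor arrays (mean 1.96%) and 2.55% to 7.87% on normal arrays (mean 5.86%), so it moved with the group. When the values were shifted by a wrong constant, 0.260% to 0.587% still fell on such ratios, close to the lowest tumor share. Of 7 measured hepatocyte markers, 6 were lower in tumors, as were 4.94% of all features, and the median difference of the markers was -2.29. The mean log2 ratio of these markers ran from -3.51 to -1.48 on tumor arrays and from -0.88 to 0.19 on normal arrays. Of 4 exocrine pancreas markers 0 passed, 3 had an unadjusted p under 0.05, and their median difference was -2.18. Over all features 10.8% passed, and 4115 of 15780 had an unadjusted p under 0.05. The part of these markers in the results below was not tested. Normal replicate 1 and tumor replicate 10 most often held the extremes. Over all features, normal replicate 1 was the highest of the 20 arrays for 19.8% and tumor replicate 10 the lowest for 18.5%. Next came tumor replicate 1, the highest for 11.6%, and normal replicate 3, the lowest for 11.9%.

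Of the 40 genes, 8 were higher in tumors and 2 were lower, or 25.0% of the genes, while 10.8% of all features passed (5.91% higher and 4.94% lower). Among the 4 genes of smooth and non-muscle myosin II, 3 rose and 0 fell, with a median difference of 0.84. Among the 26 genes of striated muscle, 2 rose and 2 fell, with a median of -0.17, beside a median of -0.01 over all features. Of the 7 unconventional myosins 1 rose and 0 fell, and of the 3 other genes 2 rose and 0 fell. In 0 of the 40 genes were the tumor and normal arrays fully apart, as they were in 0.526% of all features. The difference between the classes was not tested.

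**Figure D1:**
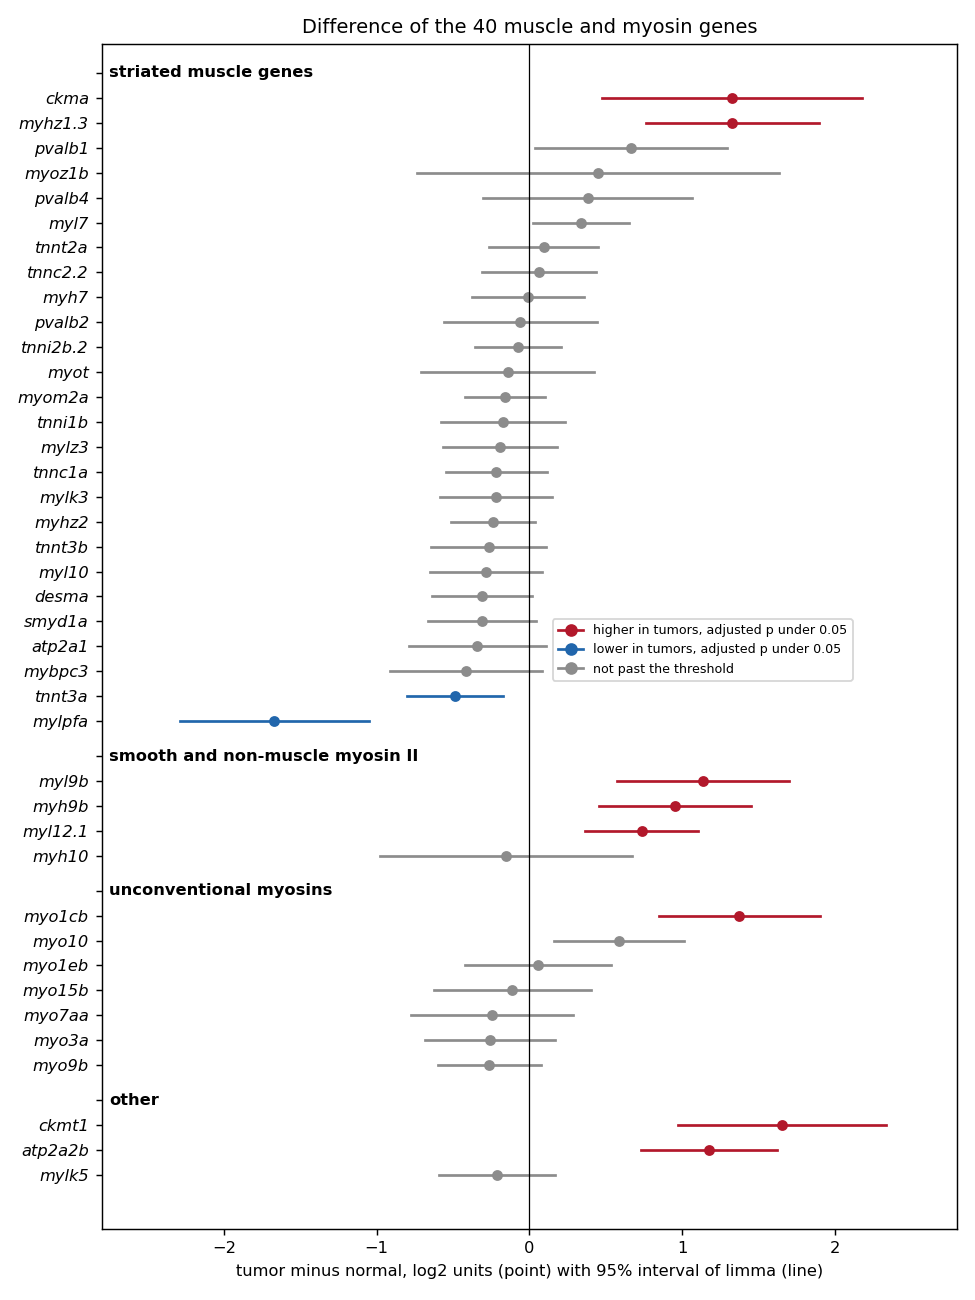
Difference between tumor and normal liver of each of the 40 genes in log2 units (horizontal axis), with the 95% interval of limma, grouped by class and sorted by size. The 10 coloured genes passed the adjusted threshold; most striated muscle genes lie close to 0, apart from mylpfa at -1.67 and ckma and myhz1.3 at 1.33.

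Of the striated muscle genes, mylpfa, the regulatory light chain of fast skeletal myosin, had the smallest p and the largest decrease. It stood between -3.43 and -1.25 on tumor arrays (median -2.58), against -1.86 to 0.18 on normal arrays (median -0.94). All tumor arrays lay below the mean of the normal arrays, and 8 of the 10 lay below every normal array. The difference was -1.67 ± 0.30, or 3.18-fold lower in tumors (adjusted p = 0.00129 with limma). Mylpfa was also lower in the normal livers than in the reference, at -0.90 ± 0.21 (SE, adjusted p = 0.00341 with limma). It was measured by 1 probe, and whether that probe tells mylpfa from related genes was not tested.

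The other member that fell was tnnt3a, the fast skeletal troponin T, which ties troponin to tropomyosin. It stood between -1.11 and -0.05 on tumor arrays (median -0.67), against -0.60 to 0.59 on normal arrays (median -0.19). The groups overlapped, with 6 tumor arrays below every normal array. The difference was -0.49 ± 0.15 (adjusted p = 0.0426 with limma), and the call was lost when any of 13 single arrays was left out (adjusted p as high as 0.0820). These were tumor replicates 2, 3, 4, 6, 7, 8 and 9 and normal replicates 3, 4, 5, 6, 7 and 10. It was also lost with arrays centred on their medians (adjusted p = 0.0587) and in the rank-sum test (adjusted p = 0.0523).

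Myhz1.3, a heavy chain of fast skeletal myosin, went the other way. Tumor arrays stood between 0.26 and 2.63 (median 1.68), against -0.34 to 1.305 on normal arrays (median 0.09). Normal replicate 2, at 1.305, was the one normal array among the tumors, and 9 of 10 normal arrays lay below every tumor array. The difference was 1.33 ± 0.27, or 2.51-fold (adjusted p = 0.00340 with limma). Zebrafish carry several nearly identical myhz1 genes, so the signal may be shared among them. Myhz2, another fast heavy chain, was measured by its own probe, did not pass, and ran from -0.81 to 0.01 on tumor arrays and from -0.48 to 0.50 on normal arrays.

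Ckma, the muscle creatine kinase that regenerates ATP from phosphocreatine, stood between -0.27 and 4.33 on tumor arrays (median 1.18), against -0.55 to 0.88 on normal arrays (median -0.06). Of the 10 tumor arrays 7 lay above every normal array. Tumor replicate 10 was the highest at 4.33, and the next tumor stood at 2.12. The difference was 1.33 ± 0.41, or 2.51-fold (adjusted p = 0.0402 with limma). The call was lost without any of 11 single arrays, tumor replicates 1, 2, 3 and 8 and normal replicates 1, 2, 3, 4, 8, 9 and 10 (adjusted p as high as 0.0695). The difference fell to 0.999 but passed without tumor replicate 10 (adjusted p = 0.0346). The high value of ckma on tumor replicate 10 was not shared by the other striated genes: the next highest of the 26 there was myhz1.3 at 0.26, and 17 stood below -0.5. Ckma too was measured by 1 probe, and whether it tells ckma from related genes was not tested.

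**Figure D2:**
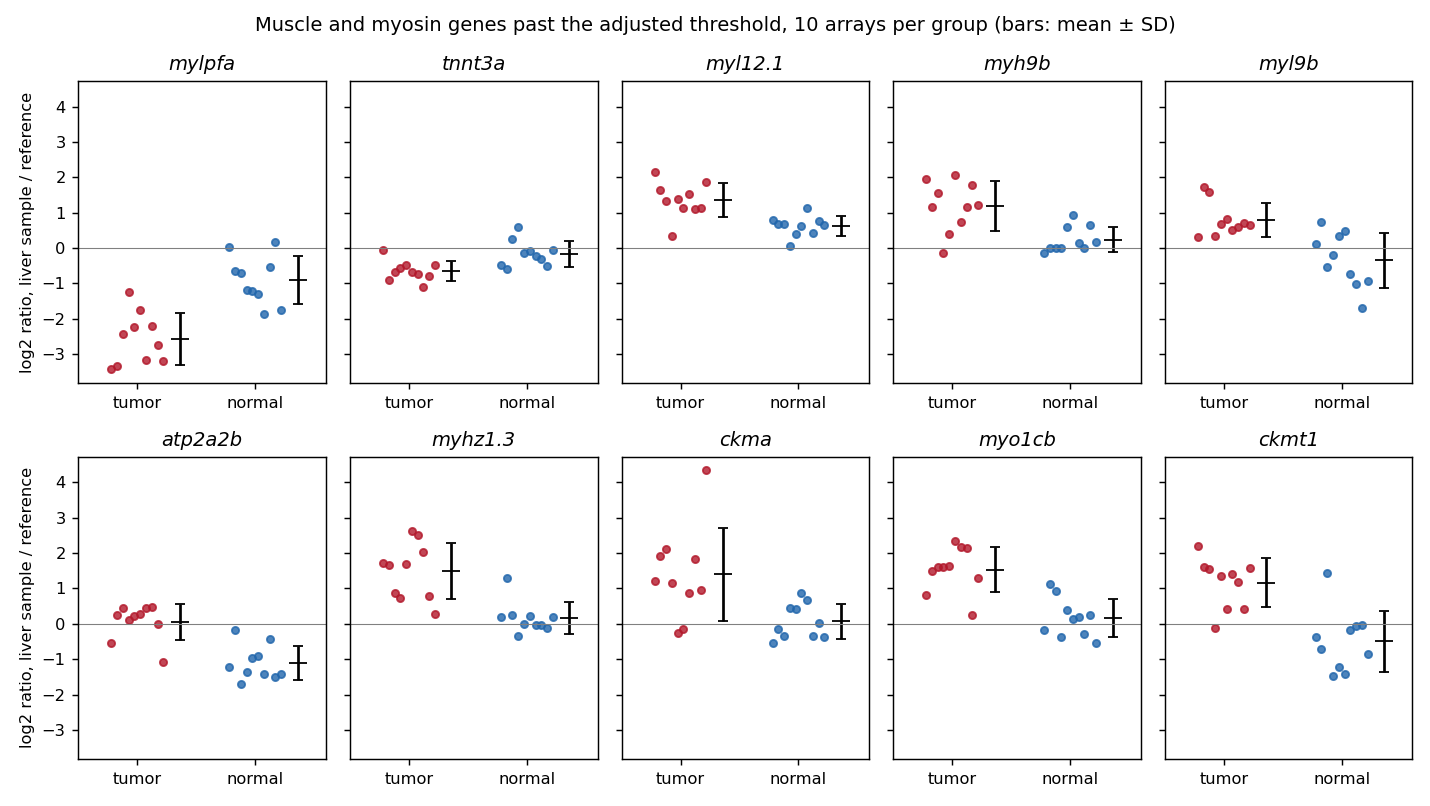
Log2 ratios of the 10 genes past the adjusted threshold on each of the 10 tumor arrays (red) and 10 normal arrays (blue), with mean ± SD as black bars, ordered by their difference. Mylpfa lies lowest, at -3.43 to -1.25 on tumor arrays, and the groups overlap in every gene.

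The other 22 striated muscle genes did not pass. Their differences ran from -0.42 for mybpc3, the cardiac myosin binding protein C, to 0.66 for pvalb1, a calcium-buffering parvalbumin, with a median of -0.17. For 19 of the 22 the 95% interval of the difference lay within 1 log2 unit on either side of 0. Over all features, 12342 of 15780 intervals lay there. The 3 of the 22 with wider intervals were myoz1b, pvalb1 and pvalb4. Among the 22, 2 had an unadjusted p under 0.05, pvalb1 and myl7, while 4115 of all 15780 features did.

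Pvalb1 (0.66 ± 0.30, adjusted p = 0.164 with limma) stood between -0.35 and 3.11 on tumor arrays (median 0.29), against -0.62 to 0.36 on normal arrays (median -0.17). The value of 3.11 belonged to tumor replicate 1, and the next highest tumor stood at 0.63. The difference was 0.38 without that array. The other parvalbumins did not share it, since on tumor replicate 1 pvalb2 stood at -0.29 and pvalb4 at -0.71. Pvalb2 was instead highest on tumor replicate 2, at 1.33, and on normal replicate 1, at 1.27. Pvalb4 ran from -0.71 to 0.69 on tumor arrays and from -2.32 to 1.62 on normal arrays.

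Genes of the heart and of slow fibres were measured by 8 members, myh7, myl7, myl10, tnnt2a, tnni1b, tnnc1a, mybpc3 and mylk3, and 0 passed. Over all features 10.8% passed. The intervals of all 8 genes lay within 1 log2 unit of 0, as did 12342 of 15780 over all features. Myl7, the regulatory light chain of the heart, stood between -0.79 and 0.23 on tumor arrays (median -0.21), against -1.17 to -0.07 on normal arrays (median -0.63), with a difference of 0.34 ± 0.15 (adjusted p = 0.164 with limma). Myh7, the ventricular heavy chain, ran from -0.85 to 0.15 on tumor arrays and from -0.71 to 0.91 on normal arrays.

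The 7 troponin genes, 4 of fast and 3 of cardiac or slow fibres, included 1 that passed, tnnt3a, beside 10.8% of all features. The fast troponins tnnt3b, tnni2b.2 and tnnc2.2 had means of -0.15, 0.04 and -0.13 on tumor arrays and of 0.11, 0.11 and -0.19 on normal arrays. The sarcomere proteins of the M band and Z disc, myom2a, myot and myoz1b, did not pass either. Myom2a ran from -0.74 to -0.08 on tumor arrays and from -0.92 to 0.12 on normal arrays. Myoz1b, which binds calcineurin at the Z disc, reached -3.76 on tumor replicate 9, -4.13 on normal replicate 8 and -2.91 on normal replicate 10. It was also the member with the most dim values, on 7 of 20 arrays.

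Desma, the muscle intermediate filament protein desmin, stood between -0.73 and 0.09 on tumor arrays (median -0.19), against -0.36 to 0.99 on normal arrays (median -0.05), a difference of -0.31 ± 0.16 (adjusted p = 0.214 with limma). Smyd1a, a methyltransferase that helps myosin fold, differed by -0.31 ± 0.17 (adjusted p = 0.252 with limma), and was highest on normal replicate 1 at 1.25 and lowest on tumor replicate 10 at -0.88. Mylz3, a light chain of fast skeletal myosin, did not pass and ran from -0.19 to 0.44 on tumor arrays and from -0.50 to 1.21 on normal arrays. Atp2a1, the calcium pump of fast fibres, had the same extremes, 1.23 on normal replicate 1 and -1.25 on tumor replicate 10, and did not pass.

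Those same 2 arrays held the extremes of many striated genes. Normal replicate 1 was the highest array for 14 of the 26 genes (53.8%), beside 19.8% of all features, and tumor replicate 10 was the lowest for 10 of the 26 (38.5%), beside 18.5% of all features. On normal replicate 1, 19 of the 26 genes stood above 0.5, where 34.6% of all features did. On tumor replicate 10, 17 of the 26 stood below -0.5, where 34.3% of all features did. The median of the 26 genes was 0.89 on normal replicate 1, which had a median of 0.20 over all features, and -0.61 on tumor replicate 10, with -0.16 over all features. On the other arrays the median of the 26 lay between -0.32 and 0.04 for tumors and between -0.39 and 0.20 for normal livers. Mylpfa, tnnt3a, myhz1.3 and ckma were not among the 14 or the 10 genes.

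**Figure D3:**
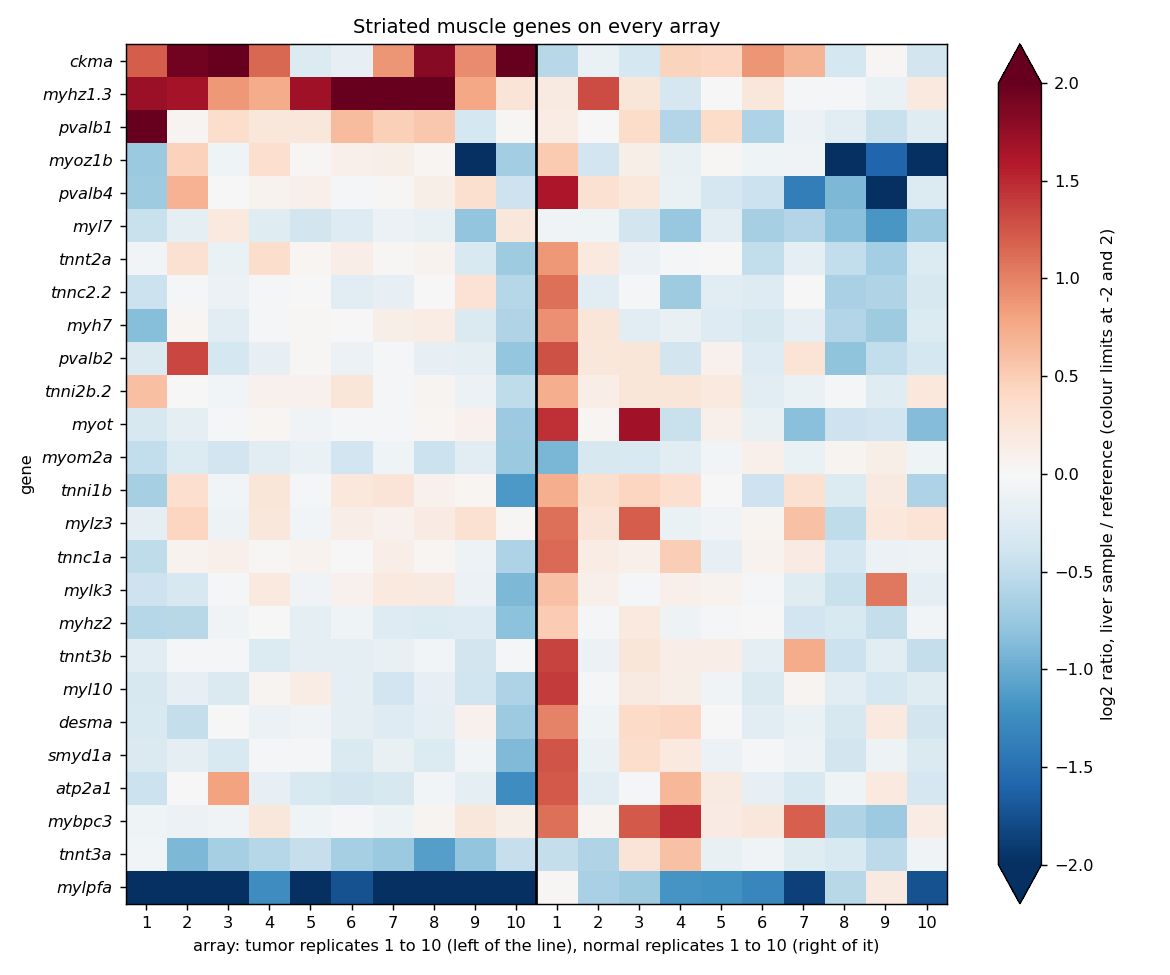
Log2 ratio of the 26 striated muscle genes (rows, sorted by their difference) on tumor replicates 1 to 10 (left) and normal replicates 1 to 10 (right); red is above and blue below the reference, with colours capped at -2 and 2. The column of normal replicate 1 is red for most genes, 20 of 26 genes are below 0 on tumor replicate 10 and 22 on tumor replicate 1, against 25 on normal replicate 8, 22 on normal replicate 10 and 20 on normal replicate 6, and the rows of ckma, myhz1.3 and mylpfa differ between the groups.

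Many striated muscle probes held dim values on some arrays. Of the probes of the 22 striated genes that did not pass, 19 (86.4%) had at least 1 dim value over the 20 arrays, beside 44.3% of all probes. Dim values made up 8.64% of the values of these probes, beside 3.91% over all probes. None of the probes of mylpfa, tnnt3a, myhz1.3 and ckma had one, nor did any probe of the 4 smooth and non-muscle myosin II genes. Ratios of dim spots rest on little signal, and values near 0 there do not show that the gene was expressed alike in tumor, normal liver and reference. For 19 of these 22 genes the spread was larger among normal than among tumor arrays (86.4%, beside 60.4% of all features). The normal arrays had the larger dim share. They also include normal replicate 1, the highest array for 14 of the 22 genes (63.6%, beside 19.8% of all features). What made the spread larger was not tested.

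Of the 4 genes of non-muscle and smooth muscle myosin II, those higher in tumors were a heavy chain and 2 regulatory light chains. Myh9b, a heavy chain of non-muscle myosin IIA, stood between -0.13 and 2.08 on tumor arrays (median 1.19), against -0.14 to 0.93 on normal arrays (median 0.08). Of the 10 tumor arrays 7 lay above every normal array, and tumor replicate 4 was the lowest. The difference was 0.95 ± 0.24, or 1.94-fold (adjusted p = 0.0129 with limma).

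Myl12.1, a regulatory light chain of non-muscle myosin, stood between 0.35 and 2.15 on tumor arrays (median 1.35), against 0.07 to 1.13 on normal arrays (median 0.66). Here too 7 tumor arrays lay above every normal array. The difference was 0.73 ± 0.18, or 1.66-fold (adjusted p = 0.0106 with limma). The normal livers themselves stood above the reference, by 0.63 ± 0.13 (adjusted p = 0.000993).

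Myl9b, the regulatory light chain of smooth muscle and non-muscle myosin, stood between 0.31 and 1.72 on tumor arrays (median 0.67), against -1.71 to 0.74 on normal arrays (median -0.36). Of the normal arrays 7 lay below every tumor array. The difference was 1.14 ± 0.27 (adjusted p = 0.0100 with limma). Its 3 probes gave 0.16, 1.70 and 1.55, and when each probe was tested on its own only the one at 1.70 passed (adjusted p = 0.741, 0.000299 and 0.110 with limma).

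Myh10, the heavy chain of non-muscle myosin IIB, did not pass (-0.15 ± 0.40, adjusted p = 0.839 with limma). It stood between -2.26 and 1.43 on tumor arrays (median 0.15), against -0.70 to 1.24 on normal arrays (median -0.09). Its lowest values, -2.26 and -2.09, were those of tumor replicates 1 and 10, while the other tumors lay at -0.47 or above. Without these 2 arrays the difference was 0.36 (adjusted p = 0.426 with limma), opposite in sign. Leaving out the 2 lowest tumor arrays could only raise the difference.

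Among the unconventional myosins, myo1cb rose. It encodes a class I myosin that links membranes to actin. Tumor arrays stood between 0.24 and 2.34 (median 1.61), against -0.54 to 1.14 on normal arrays (median 0.15), with 8 of 10 tumor arrays above every normal array. The difference was 1.37 ± 0.25, or 2.59-fold (adjusted p = 0.00162 with limma). Myo10, a motor of filopodia, did not reach the threshold at 0.59 ± 0.20 (adjusted p = 0.0680 with limma). Its values lay between -0.03 and 1.66 on tumor arrays (median 0.64), against -0.25 to 0.64 on normal arrays (median 0.09). The other 5, myo1eb, myo3a, myo7aa, myo9b and myo15b, did not pass. Myo3a and myo7aa are known in vertebrates for roles in sensory hair cells. Myo9b ran from -0.15 to 0.90 on tumor arrays and from -0.09 to 1.07 on normal arrays.

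The calcium pump atp2a2b and the mitochondrial creatine kinase ckmt1 were both higher in tumors. Atp2a2b belongs to the pump family that fills the endoplasmic reticulum with calcium in many cell types and the sarcoplasmic reticulum in heart and slow fibres. It stood between -1.09 and 0.47 on tumor arrays (median 0.23), against -1.69 to -0.19 on normal arrays (median -1.30). The tumor arrays inside the normal range were replicates 1 and 10, and the other 8 lay above every normal array. The difference was 1.17 ± 0.21, or 2.25-fold (adjusted p = 0.00154 with limma), and its 2 probes gave 0.73 and 1.61. Normal livers lay below the reference (-1.12 ± 0.15, adjusted p = 2.57e-05), while tumors averaged 0.06 ± 0.50 (SD, n = 10), close to it.

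Ckmt1 hands phosphocreatine out of mitochondria. It stood between -0.11 and 2.18 on tumor arrays (median 1.39), against -1.48 to 1.43 on normal arrays (median -0.55). Of the normal arrays 7 lay below every tumor array, and normal replicate 3 reached 1.43. The difference was 1.65 ± 0.33, or 3.15-fold (adjusted p = 0.00259 with limma). Mylk5, a member of the myosin light chain kinase family, did not pass and ran from -1.05 to 0.77 on tumor arrays and from -0.78 to 0.47 on normal arrays.

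The dim share was set against these differences. When this share was added to the fit, 0.349% of all features passed and 1 of the 40 genes did, mylpfa (-1.97 ± 0.43, adjusted p = 0.0492 with limma). The SE of each named difference was larger in this fit. The differences of ckma (1.75), ckmt1 (1.68), myh9b (1.29) and myl12.1 (0.89) were larger than without it. Those of myl9b (0.94), myo1cb (0.87), myhz1.3 (0.85) and atp2a2b (0.65) were smaller, with adjusted p between 0.344 and 0.409, as was that of tnnt3a (-0.42, adjusted p = 0.517). Tumor replicate 9 had a dim share of 7.16%, inside the range of the normal arrays. On it, mylpfa at -2.74 and tnnt3a at -0.79 were below every normal array. Above every normal array were myh9b at 1.78, ckma at 0.94 and atp2a2b at -0.0041. Inside the normal range were myhz1.3 at 0.78, myo1cb at 0.24, myl9b at 0.72, ckmt1 at 0.43 and myl12.1 at 1.12.

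**Figure D4:**
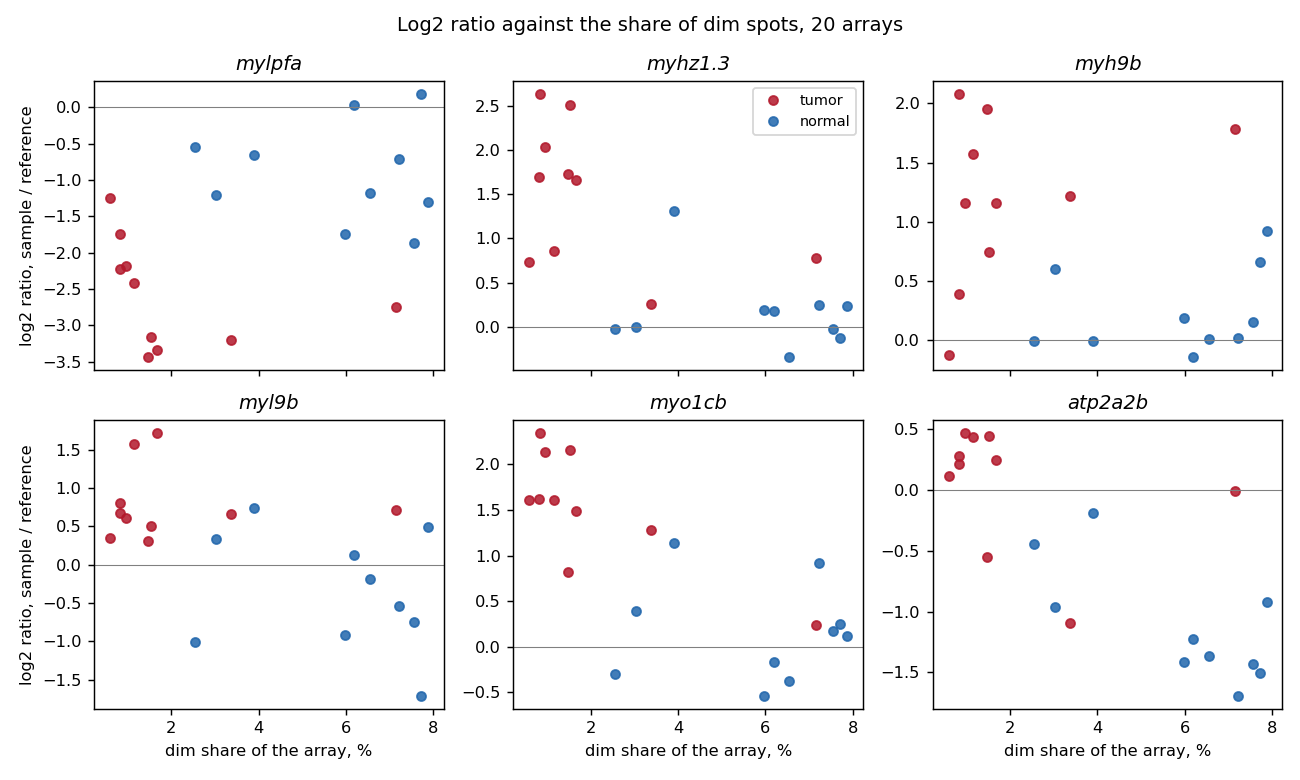
Log2 ratio of 6 of the genes that passed against the dim share of the array in percent, for 10 tumor arrays (red) and 10 normal arrays (blue). The 6 genes were not chosen by a rule. Tumor replicate 9 is the red point at 7.16%; for mylpfa it stays at -2.74, below all blue points.

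Further lists sampled part of the rest of the muscle programme. Many listed genes, among them neb, ttna, ttnb, cav3 and tcap, were not measured by a probe of a single symbol. Of 11 measured skeletal muscle genes outside the 40, 3 rose and 0 fell, with a median of -0.26. Over all features 5.91% rose and 4.94% fell. Actc1b, a sarcomeric actin, stood between 1.76 and 3.46 on tumor arrays and between 0.58 and 2.07 on normal arrays (2.14-fold, with a 95% interval of the log2 difference of 0.66 to 1.54, adjusted p = 0.00203 with limma). Actc1a, a further sarcomeric actin, differed by 0.58 ± 0.17 (adjusted p = 0.0339 with limma), and the tropomyosin tpm2 by 1.29 ± 0.30, with 8 tumor arrays above every normal array (adjusted p = 0.00823 with limma). Muscle and cytoplasmic actin genes are close in sequence, and it was not tested whether these probes tell them apart. The call of actc1a was lost without any of 9 single arrays, and its difference was 0.37 after quantile normalization (adjusted p = 0.214). The difference of tpm2 was 0.84 with array weights, and passed. With the dim share in the fit, none of the 3 passed (adjusted p = 0.214 for actc1b, 0.330 for actc1a and 0.184 for tpm2, with limma). The other 8, tpma, pgam2, tmod4, dmd, actn3a, actn3b, fhl1a and klhl31, did not pass. In that order, their differences were -0.26, -0.46, -0.59, 0.26, -0.35, -0.73, 0.08 and -0.26.

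Muscle transcription factors and chaperones were measured by 18 genes, with 0 called by limma, while 10.8% of all features were. Their median difference was -0.14, and 1 gene had an unadjusted p under 0.05, while 4115 of all 15780 features did. That gene was the heart factor hand2 (-0.43 ± 0.19, adjusted p = 0.151 with limma). Mef2ca, which drives muscle genes, had the next smallest p (0.97 ± 0.49, adjusted p = 0.218 with limma), and ran from -2.21 to 0.40 on tumor arrays and from -3.02 to 1.43 on normal arrays. Both results depended on the processing. Hand2 passed after centring and scaling (adjusted p = 0.0488), after quantile normalization (0.0389), with array weights (0.00421) and without normal replicate 8 and tumor replicate 10 (0.0335). Mef2ca passed with array weights (1.42, adjusted p = 0.00786), without normal replicate 8 (1.31, adjusted p = 0.0364) and without that array and tumor replicate 10 (adjusted p = 0.0434). With the dim share in the fit, both turned in sign and did not pass.

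Of 4 measured genes from a list for smooth muscle and myofibroblasts, 1 rose and 1 fell, beside 5.91% and 4.94% of all features. Cnn2, the calponin of smooth muscle and non-muscle cells, was higher on all 10 tumor arrays (0.60 to 2.02) than on any normal array (-1.27 to 0.37), by 1.66 ± 0.25 or 3.17-fold (adjusted p = 0.000242 with limma). The groups were fully apart in 0.526% of all features. The intermediate filament gene vim, a marker of mesenchymal cells, was lower (-0.71 ± 0.21, adjusted p = 0.0352 with limma). The call of vim was lost without any of 12 single arrays. Tagln3b and cnn3b did not pass. Because cnn2 and vim are not specific to smooth muscle, these counts do not show whether smooth muscle itself changed, which was not tested.

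Among regulators of myosin II outside the 40, dapk3, a kinase that phosphorylates the regulatory light chain, was higher in tumors by 0.66 ± 0.12 (adjusted p = 0.00122 with limma), with 8 tumor arrays above every normal array. Ppp1caa, a catalytic subunit of protein phosphatase 1, was lower (-0.66 ± 0.21, adjusted p = 0.0437 with limma), a call lost without any of 15 single arrays. With the dim share in the fit, cnn2 (1.56, adjusted p = 0.0648), vim (-0.40, adjusted p = 0.659), dapk3 (0.46, adjusted p = 0.267) and ppp1caa (-0.26, adjusted p = 0.773) did not pass. Ppp1caa also did not pass without tumor replicates 1 and 10 (adjusted p = 0.0541) or with tumor replicate 10 and normal replicate 8 both left out (adjusted p = 0.0999). The kinases rock2a and rock2b and the phosphatase subunits ppp1cb, ppp1cab and ppp1r12c did not pass without the dim share.

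In normal liver, set against the reference in the same fit, 5 of the 40 genes differed, 2 higher and 3 lower, while 25.0% of all features did. These were mylpfa, atp2a2b and myl7 below the reference and myl12.1 and myo9b (0.45 ± 0.11, adjusted p = 0.00663 with limma) above it. Myl7 averaged -0.55 ± 0.11 (SE, adjusted p = 0.000809 with limma). All normal samples carried Cy5 and all reference samples Cy3, so dye effects cannot be told apart from these differences.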

How the data were processed

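Two-colour arrays of 10 tumor and 10 normal zebrafish livers were used. The deposited values are log2 ratios, the base being read from the spacing of repeated values, per the labels of Cy5 liver sample and Cy3 normal liver reference, and the direction was taken from their order. How the authors corrected background, filtered spots or normalized is not stated. All 16512 probes had a value on every array. The platform annotation gave 1 symbol for 6088 probes, several for 75 and none for 10349. RefSeq (assembly GRCz12tu, names only) held the Entrez numbers of 6019 and of all 40 genes.

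Probes of the same single symbol were averaged, giving 15780 features, with no filter. Groups came from the array titles (T or C). Tumor was set against normal, and normal against the reference, in limma 3.58.1 (lmFit, eBayes; R 4.3.3), with Benjamini-Hochberg adjustment over all features and a threshold of 0.05. Intervals are at the 95% level. The number of arrays limits the precision. A value counted as dim when, less the array's most repeated value, it was no more than 0.00011 from the log2 of a quotient of whole numbers no larger than 10. With a wrong constant the share was 0.260% to 0.587%. On simulated data for tumor against normal (15780 features), the fit recovered 72 of 100 changes of 1 log2 unit and 98 of 100 changes of 2, with 12 false calls. The simulated noise was normal and independent, no other features were changed, and no array stood apart or had dim spots. In the real comparison 10.8% of features passed, so these counts do not give its recovery or false calls.

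The 40 genes, their classes and the lists were chosen with earlier results of these data known. Every called gene was named, with the 8 striated and 6 other genes of smallest p, and from the further muscle, smooth muscle and regulator lists the called genes or else the 2 with the smallest p, except genes not reported here. The lists of other cell types are given by counts. Other genes were named to account for all 40, and their values were chosen after they were seen. Lists of ovary, intestine, erythrocyte and leukocyte markers, of 5, 2, 4 and 5 measured genes, had 2, 0, 0 and 0 higher and 0, 0, 1 and 0 lower in tumors. Over all features 5.91% were higher and 4.94% lower. Alternatives were single probes, centring, scaling, quantile normalization, the replicate number as a block, the dim share as a covariate, array weights, a rank-sum test and leaving out arrays. Python 3.11.15, numpy 2.4.6, pandas 2.3.3 and matplotlib 3.10.9 were used. Some genes of the list of myosin II regulators, and the counts of that list, are not reported here. Probe sequences were not used here.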

Additional observations from a re-analysis of the deposited data

Results flagged for a closer look

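Each gene was looked at in each group of 10 arrays for a highest or lowest array far from its nearest neighbour, relative to the range of the group. Of 80 such groups, 16 had one, where chance alone gives about 1 in 20, or 4. Over all features 16.7% of such groups had one, so the count is near the background of these arrays. Normal replicate 1 was the far array in 7 of them. It was the highest for tnnc2.2 (1.09, next 0.0086), myo7aa (1.72, next 0.32), pvalb2 (1.27, next 0.27), smyd1a (1.25, next 0.35), myl10 (1.40, next 0.18) and tnni2b.2 (0.72, next 0.25), and the lowest for myom2a (-0.92, next -0.32). Tumor replicate 10 was the far array for ckma (4.33, next 2.12), smyd1a (-0.88, next -0.30) and myot (-0.72, next -0.32). Tumor replicate 1 was far from the rest for pvalb1 (3.11, next 0.63) and myo15b (-0.87, next 0.0043). The others were myhz1.3 on normal replicate 2 (1.305, next 0.25), pvalb2 on tumor replicate 2 (1.33, next 0.03), myoz1b on tumor replicate 9 (-3.76, next -0.74) and ckmt1 on normal replicate 3 (1.43, next -0.05).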

How the results depend on the processing

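The 10 called genes kept their sign in all 300 results under the alternatives, and mylpfa passed in each. Part of these results could not differ in sign. With the replicate block the differences could not change, because the groups were balanced over the replicate numbers. Single probes could change them only for myl9b and atp2a2b, for which the probe with the smallest p was taken. Of the 10, 8 passed without any one array, all except ckma and tnnt3a. The count of higher genes, 8, became 0 with the dim share as a covariate, 10 after centring and scaling and 7 to 9 without single arrays. The count of lower genes, 2, became 1 with centred arrays, the replicate block, the dim share or the rank-sum test. It became 3 with array weights and was 1 to 2 without single arrays. The 3 higher genes of smooth and non-muscle myosin II became 0 with the dim share and 2 with array weights. They stayed 3 without single arrays. The 1712 features became 2736 after centring and scaling, 55 with the dim share, 3391 with array weights and 1358 to 2148 without single arrays, and the 5 genes that differed from the reference became 2 with the dim share and 5 to 7 without single arrays. The cause was not tested. Centring and scaling added myo10 and pvalb1, and quantile normalization myo10, each as higher in tumors. Array weights added pvalb1 as higher (0.52) and myo9b as lower (-0.47, adjusted p = 0.0177 with limma), while losing ckma and myh9b. Myh10 turned to 0.087 after centring and scaling, 0.21 with array weights, 0.36 without tumor replicates 1 and 10, 0.12 without normal replicate 8 and tumor replicate 10 and 0.23 in the rank-sum test (difference of medians), and ran from -0.33 to 0.083 without single arrays. With the dim share, myo9b turned to 0.17, hand2 to 0.022 and mef2ca to -0.41; none of these passed there. Hand2 and mef2ca passed under other alternatives. With the replicate block, actc1a (adjusted p = 0.0661) and ppp1caa (0.0652) were also lost. The labels do not say whether the replicate numbers pair the arrays. Of 10 same-numbered pairs, 2 had deviations correlated above 0.1 (-0.152 to 0.122), and 1 tumor array correlated best with its own number. Such low correlations cannot exclude pairs, because paired tumor and normal samples need not deviate alike. With the replicate block, 1253 features, 7 higher and 1 lower gene passed, ckma and tnnt3a being lost (adjusted p = 0.0953 and 0.0671). There, 3 genes of smooth and non-muscle myosin II and 5 against the reference passed. Without brightness values, how far dim spots affect the striated genes was not tested.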

Other observations

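The 7 probes assigned to several genes and holding a symbol of these families had differences between -0.42 and 0.20. By limma 0 passed, and 1 had an unadjusted p under 0.05. Over all features 10.8% passed, and 4115 of 15780 had an unadjusted p under 0.05.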
